A study of Homo sapiens with 12 samples.

Results

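The proteasome subunit genes are the human genes named PSMA, PSMB, PSMC, PSMD, PSME, PSMF or PSMG followed by a number. They were selected by symbol from the deposited expression table, without PSMC4, which the selection rule describes as lying in an amplified segment, and without the inducible subunits PSMB8 and PSMB9. The symbols matched 48 genes, 45 remained after these 3 were removed, and 43 reached 1 FPKM in at least 3 of the 12 libraries. The table holds 60564 genes, of which 12860 passed the same filter on low values. The other two, the testis alpha subunit PSMA8 and the thymus beta subunit PSMB11, were listed at 0 in every library. FPKM is a fragment count scaled by transcript length and by the size of the library.

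The libraries came from CFPAC-1 and BxPC-3, which are established human pancreatic ductal adenocarcinoma cell lines. Control cells grew in normal medium, and induced cells went without serum for 48 h so that they would form primary cilia; each line had 3 control and 3 induced libraries. According to the series text, induction took the share of cells with a cilium from 7% to 39% in CFPAC-1 and from 5% to 78% in BxPC-3. Starvation and the higher share of ciliated cells came together in both lines, so these cannot be told apart. In such bulk RNA, fewer cells that express a gene and less of its RNA per cell cannot be told apart either. The labels do not say whether libraries of a group came from separate cultures, and p-values measure only the spread between these libraries, which may be technical.

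The proteasome degrades proteins that carry ubiquitin chains. Its 20S core is a barrel of alpha and beta rings, with the proteolytic sites on beta subunits, and its 19S cap has a ring of ATPases that unfolds substrates, a non-ATPase base that binds ubiquitin, and a lid that removes the chains. Dedicated chaperones assemble core and cap, alternative activators open the core without ubiquitin, and interferon can exchange the proteolytic subunits for inducible ones.

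Library number set samples apart within each group. Across the tested genes, libraries 2 and 3 of a group correlated at 0.987 to 0.99 on the log2(FPKM + 1) scale, and library 1 correlated with them at 0.814 in CFPAC-1 controls, 0.937 and 0.946 in induced CFPAC-1, 0.952 and 0.947 in BxPC-3 controls and 0.949 and 0.953 in induced BxPC-3. For the libraries labelled CFPAC-1 control 2 and 3 the correlation with induced CFPAC-1 was 0.791 to 0.805 and with the BxPC-3 libraries 0.761 to 0.793, while CFPAC-1 control 1 correlated with induced CFPAC-1 at 0.919 to 0.942. The main results that rest on control 2 and 3 are therefore also given without them; counts of groups that do not overlap are given with all libraries. All 8 duct epithelial markers had a value above 0 in every library, but KRT19, EPCAM and MUC1 were low in control 2 and 3. KRT19 was at 532 FPKM in CFPAC-1 control 1, at 7.42 and 7.67 FPKM in control 2 and 3 and at 254 to 627 FPKM when induced. EPCAM was at 14.8, 0.963 and 1.04 FPKM in the 3 controls, and MUC1 at 9.23, 1.49 and 1.58 FPKM. SOX9 went the other way, at 17.9, 55.1 and 53.0 FPKM in these controls. KRT8 was at 274, 270 and 316 FPKM in them and KRT18 at 254, 318 and 311 FPKM. KRT7 and CDH1 were low in all CFPAC-1 libraries, at most 2.0 and 0.892 FPKM. The fibroblast marker LUM was at 36.8 FPKM in CFPAC-1 control 1, at 0.0532 and 0 in control 2 and 3, and at 25.5, 108 and 103.5 in the induced libraries. The other 6 fibroblast markers were each at most 4.28 FPKM. COL1A1 and COL3A1 went the other way, at 0.0445, 4.28 and 4.28 FPKM and at 0.0733, 1.98 and 2.06 FPKM in the 3 CFPAC-1 controls. COL1A2, DCN and PDGFRB were highest in control 1 of these, at most 0.385 FPKM, and PDGFRA was at most 0.00991 FPKM. What part these markers had in the results below was not tested. Of the 6 immune markers CD68 was the highest in all groups but induced BxPC-3, where CD14 was, at 6.31 to 7.06 FPKM, and PTPRC was at most 0.00981 FPKM in any library; the 4 endothelial markers together stayed at or under 0.621 FPKM, and CPA1, INS and GCG were listed at 0 in all 12 libraries.

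All structural parts of the particle were expressed in both lines, at levels per transcript length that differed widely between genes. The median over the 43 genes lay between 16.6 and 26.01 FPKM in the 12 libraries, against 3.65 to 4.77 FPKM for all tested genes. In the alpha ring, which forms the gate of the core, PSMA7 had the highest mean over all libraries, 191 FPKM, and PSMA4 the lowest, 12.98 FPKM. In the beta ring the means ran from 18.4 FPKM for PSMB10 to 116 FPKM for PSMB3, a structural subunit. The ATPases ran from 6.95 FPKM for PSMC6 to 87.6 FPKM for PSMC3. Among the base scaffolds and receptors, PSMD2 stood at 65.0 FPKM and PSMD1 at 18.4 FPKM, and in the lid PSMD8 stood at 75.2 FPKM and PSMD6 at 4.74 FPKM.

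The assembly chaperones had lower medians of mean FPKM, 10.51 for the 19S base and 14.1 for the core, than the alpha ring and the lid at 20.8 and 20.5, while the activators stood at 24.5. Of the chaperones of the 19S base, PSMD10 (gankyrin) had the highest mean, 16.3 FPKM, and PSMD9 the lowest, 4.56 FPKM. Of those of the 20S core, PSMG1 stood at 17.4 FPKM and PSMG4 at 1.11 FPKM, the lowest of all 43 members and close to the filter. The activator PSME1 (PA28 alpha) had a mean of 63.3 FPKM, PSME4 (PA200) had 6.30 FPKM, and PSMF1 (PI31), an inhibitor of the isolated core, had 13.5 FPKM.

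**Figure D1:**
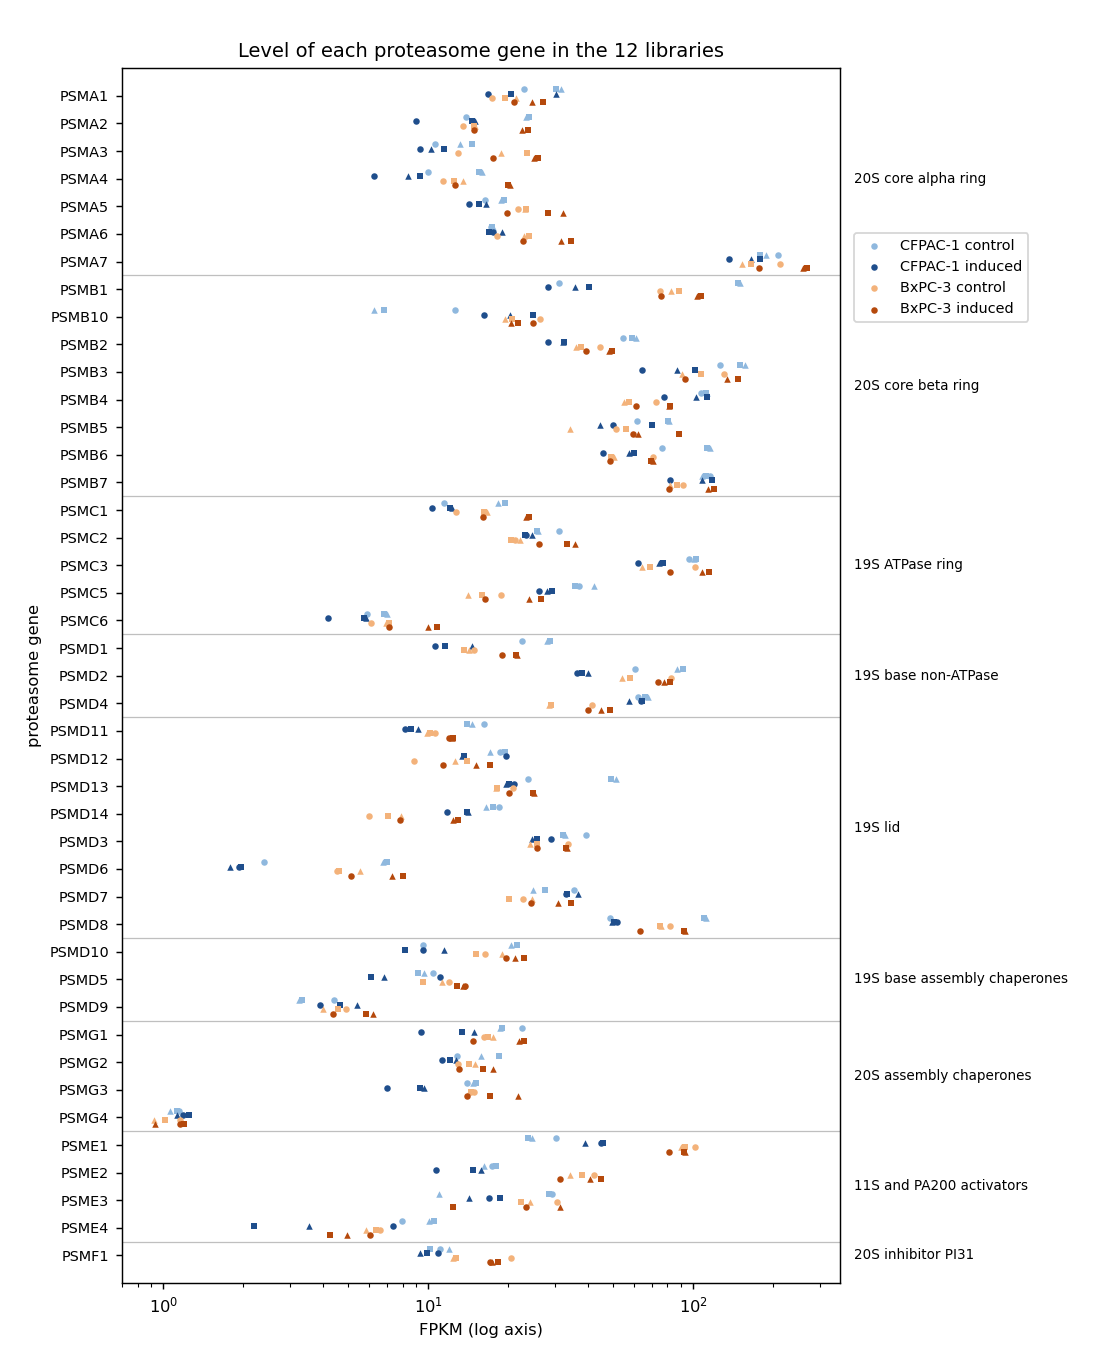
FPKM (log axis) of each of the 43 proteasome genes in the 12 libraries, grouped by role; colours give the group and marker shapes the library number (circle 1, square 2, triangle 3). PSMA7 sits highest and PSMG4 lowest, and the light blue squares and triangles of CFPAC-1 control 2 and 3 stand away from the circle for PSMB1, PSMD6, PSMD8, PSMD10 and PSMD13.

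The start regions of the members carried the letters of known response elements. Promoter sequences, 250 bases before to 50 after the RefSeq start on GRCh38.p14, were found for 37 of the 43 members and searched on both strands. GAAA, any 2 bases and GAAA again, the core of the interferon-stimulated response element, occurred in 6 of the 37 (16.2%) and in 3.65% of 27305 promoters; they were those of PSMA4, PSMB4, PSMB10, PSMG4, PSME1 and PSME2. PSMB10, PSME2, PSMG4 and PSME1 are shown because 3 of them are the inducible genes described below and all 4 hold the match near the start; capitals mark it. The PSMB10 sequence is chr16:67936851-67936940 on the minus strand, PSME2 chr14:24146611-24146700 on the minus strand, PSMG4 chr6:3258857-3258946 on the plus strand and PSME1 chr14:24136184-24136213 on the plus strand, where the match reads on the opposite strand.
PSMB10: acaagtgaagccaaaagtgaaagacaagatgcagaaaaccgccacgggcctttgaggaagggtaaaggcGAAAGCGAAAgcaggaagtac
PSME2: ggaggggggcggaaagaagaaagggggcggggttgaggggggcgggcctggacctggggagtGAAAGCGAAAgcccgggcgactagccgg
PSMG4: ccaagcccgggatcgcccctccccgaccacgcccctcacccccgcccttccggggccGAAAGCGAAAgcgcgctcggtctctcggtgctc
PSME1: cgagcgccctaccgcTTTCGCTTTCccttc
The first capital lies 21 bases before the start in PSMB10, 28 before in PSME2 and 33 before in PSMG4, and 6 bases after it in PSME1.

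TGACNNNGC, the core of the antioxidant response element bound by the proteasome gene activator NRF1 and by NRF2, occurred in 11 of the 37 promoters (29.7%) and in 13.6% of all. CCAAT occurred in 17 (45.9%) and in 35.7% of all, and TTCNNNGAA, the gamma-activated sequence, in 3 (8.11%) and 7.88% of all. PSMB3 (chr17:38752621-38752740, plus strand), PSMD3 (chr17:39980717-39980806, plus strand) and PSMD1 (chr2:231056886-231056915, plus strand) are shown for TGACNNNGC, as a core, a lid and a base subunit that held it; capitals mark it and, in PSMB3, also CCAAT.
PSMB3: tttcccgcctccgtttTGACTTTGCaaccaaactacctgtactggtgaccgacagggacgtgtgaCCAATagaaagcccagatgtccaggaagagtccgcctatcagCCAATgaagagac
PSMD3: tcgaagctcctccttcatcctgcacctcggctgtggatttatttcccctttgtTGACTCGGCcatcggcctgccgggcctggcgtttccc
PSMD1: cggcggcctgaggaggcgacTGACTGAGCa
A match is a description of these windows and not a site of binding.

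Summed over the members, proteasome transcripts took a smaller share of the non-mitochondrial FPKM in induced than in control CFPAC-1, while the BxPC-3 groups overlapped. In CFPAC-1 the control libraries held 0.762%, 0.864% and 0.857% and the induced ones 0.507%, 0.566% and 0.555%, so the groups did not overlap. In BxPC-3 the control libraries held 0.759%, 0.639% and 0.627% and the induced ones 0.697%, 0.821% and 0.806%, and control 1 lay above induced 1. The group means were 0.828% ± 0.057, 0.543% ± 0.031, 0.675% ± 0.073 and 0.775% ± 0.068 (SD, n = 3) for CFPAC-1 control, CFPAC-1 induced, BxPC-3 control and BxPC-3 induced. Mitochondrially encoded genes moved as well, which shifts FPKM of all other genes: they took 34.0%, 19.9% and 19.9% of the summed FPKM in CFPAC-1 controls and 11.6%, 21.2% and 22.8% in induced CFPAC-1, and 24.6% to 28.8% in BxPC-3 controls and 18.6% to 22.3% in induced BxPC-3.

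**Figure D2:**
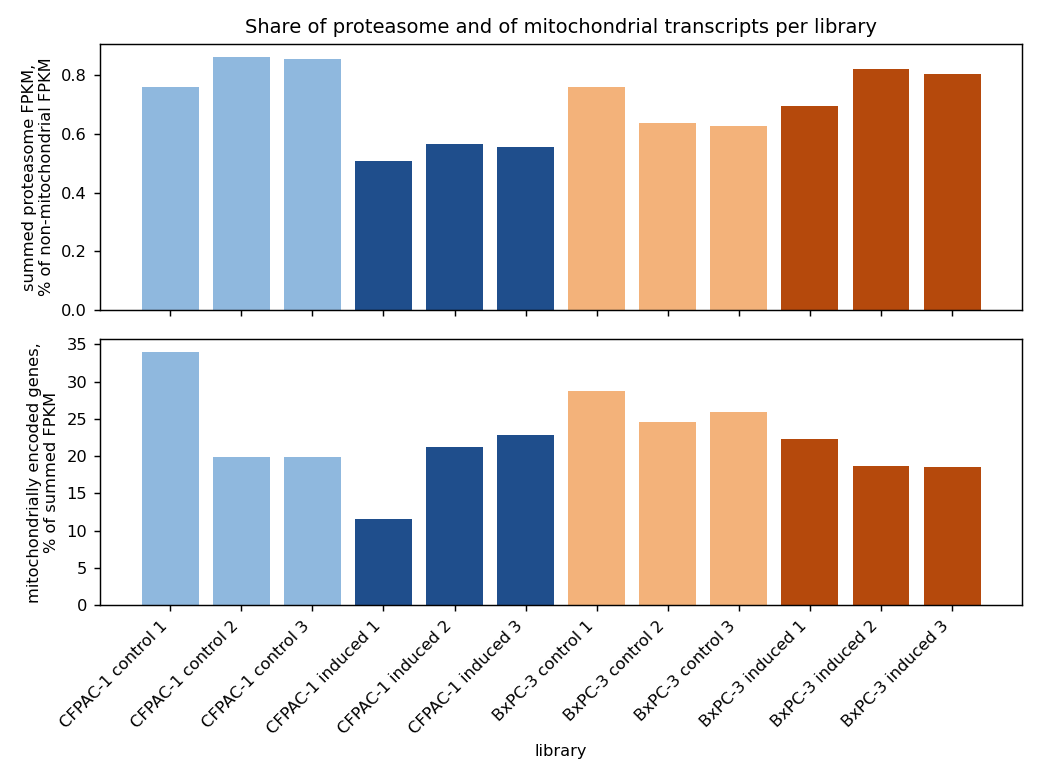
Summed FPKM of the 43 proteasome genes as a percent of non-mitochondrial FPKM (top) and mitochondrially encoded genes as a percent of summed FPKM (bottom), 1 bar per library. The induced CFPAC-1 bars, 0.507% to 0.566%, are the lowest of the top panel, and BxPC-3 induced 1 lies under BxPC-3 control 1.

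In CFPAC-1, subunits of the core and of the 19S cap fell on induction while PSMB10 and PSME1 rose. The log2 change, a difference of mean log2(FPKM + 1), was negative for 37 of the 43 members, with a median of -0.38 (range -1.33 to 1.21), against a median of -0.09 over all tested genes, 43.7% of which were positive. With limma and Benjamini-Hochberg adjustment over all tested genes at 0.05, 2 members rose and 10 fell, 27.9% of the members where 16.6% of all tested genes passed, 7.85% as higher and 8.77% as lower. Induced and control libraries did not overlap for 20 members that were lower (46.5%, against 17.6% of all tested genes) and 2 that were higher (4.65%, against 14.0%). In FPKM rescaled to the total without mitochondrial genes, 18 fell and 2 rose. That rescaling also moved the median over all tested genes from -0.09 to -0.18, and the share of them that passed is not given.

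Both large scaffolds of the base, which bind ubiquitin receptors and shuttle factors, fell. PSMD1 (chr2:231056864-231172827) stood at 22.6, 28.8 and 28.01 FPKM in CFPAC-1 controls and at 10.6, 11.5 and 14.6 FPKM in induced libraries. The groups were well apart, and PSMD1 fell by 1.05 ± 0.17 (log2, SE, adjusted p = 0.00391). PSMD2 (chr3:184298709-184309054) stood at 60.2, 91.3 and 86.7 FPKM in controls and at 36.4, 38.0 and 40.0 FPKM when induced. It fell by 1.016 ± 0.21 (adjusted p = 0.0109), with control 1 the lowest of the controls. The third base gene, the ubiquitin receptor PSMD4, had a change of -0.08 (adjusted p = 0.78) and overlapping groups. All 3 base genes were negative, with a median of -1.016.

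In the lid 3 of 8 genes fell and the median change was -0.56. PSMD11, a scaffold whose level is known to set how much 26S particle is assembled in stem cells, stood at 16.2, 14.0 and 14.7 FPKM in controls and at 8.14, 8.58 and 9.13 FPKM when induced. Every induced library was under every control, and PSMD11 fell by 0.73 ± 0.14 (adjusted p = 0.00809). PSMD6 stood at 2.40, 7.00 and 6.73 FPKM in controls and at 1.94, 1.97 and 1.78 FPKM when induced; it fell by 1.04 ± 0.29 (adjusted p = 0.0369), but control 1 was closer to the induced libraries than to the other controls. PSMD13 showed the same shape, with 23.7, 48.9 and 51.0 FPKM in controls and 21.1, 20.2 and 19.6 FPKM when induced, a fall of 0.91 ± 0.25 (adjusted p = 0.0348). The deubiquitinase PSMD14, which cuts chains off the substrate, had a change of -0.38 (adjusted p = 0.194).

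In the beta ring 3 of 8 genes fell, 1 rose and the median change was -0.62. PSMB2, a structural subunit, stood at 54.5, 58.6 and 60.9 FPKM in controls and at 28.3, 32.5 and 32.4 FPKM when induced, a fall of 0.88 ± 0.16 (adjusted p = 0.00678). PSMB6, which carries the caspase-like site, fell by 0.87 ± 0.24 (adjusted p = 0.0313) and PSMB3 by 0.79 ± 0.24 (adjusted p = 0.0432). PSMB1 had the most negative value of all members, -1.33 ± 0.48, and did not pass (adjusted p = 0.0724). It stood at 31.1, 148 and 149.9 FPKM in controls and at 28.4, 40.4 and 35.9 FPKM when induced, so control 1 lay within the induced range. PSMB5, the chymotrypsin-like subunit, had a change of -0.45 (adjusted p = 0.218).

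Members of the alpha ring and of the ATPase ring did not pass the threshold in CFPAC-1. The alpha ring had 6 of 7 genes negative and a median of -0.28, with PSMA4 the most negative at -0.71 (adjusted p = 0.0599). The ATPase ring had 5 of 5 negative and a median of -0.44, the most negative being PSMC3 at -0.50 (adjusted p = 0.109). Of the 20S chaperones PSMG3 fell by 0.71 ± 0.18 (adjusted p = 0.0274), PSMG1 had a change of -0.65 (adjusted p = 0.055) and PSMG4 one of 0.05. The base chaperones had a median of -0.30 with none past the threshold. PSME4, the nuclear activator PA200, stood at 7.94, 10.47 and 10.1 FPKM in controls and at 7.38, 2.19 and 3.54 FPKM when induced, a fall of 1.08 ± 0.29 (adjusted p = 0.0319) with induced 1 close to control 1. The inhibitor PSMF1 had a change of -0.13 (adjusted p = 0.661).

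**Figure D3:**
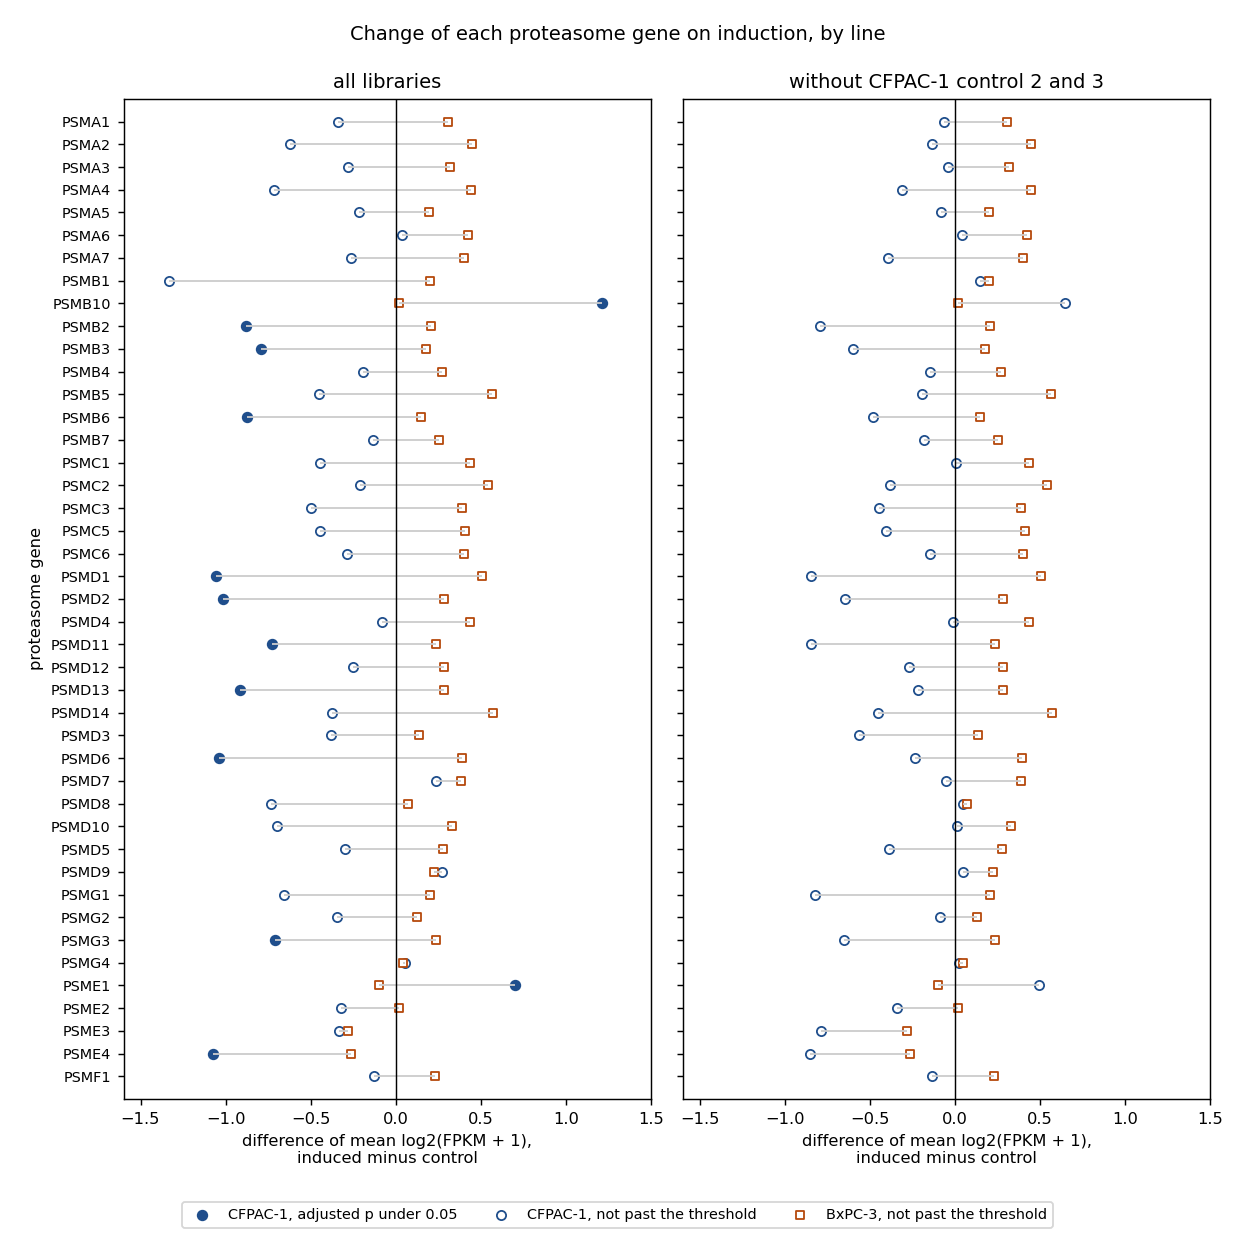
Induced minus control difference, in mean log2(FPKM + 1), of each proteasome gene in CFPAC-1 (circles, filled where the adjusted p is under 0.05) and BxPC-3 (squares), with all libraries (left) and without CFPAC-1 control 2 and 3 (right). In 35 of the 43 genes the square lies right of 0 and the circle left of it on the left panel, and in 32 on the right panel, where no circle is filled.

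Of the members that interferon is known to induce, PSMB10 and PSME1 rose in CFPAC-1 with all libraries, while PSME2 lay near the member median of -0.38. PSMB10 (chr16:67934502-67937087), the inducible subunit that takes the place of the trypsin-like subunit PSMB7, stood at 12.6, 6.82 and 6.25 FPKM in CFPAC-1 controls and at 16.2, 24.9 and 20.4 FPKM when induced. Every induced library was above every control, and PSMB10 rose by 1.21 ± 0.25 (adjusted p = 0.0122). PSMB7 stood at 115, 112 and 108 FPKM in controls and at 81.8, 118 and 108 FPKM when induced, with overlapping groups and a change of -0.14 (adjusted p = 0.651). PSME1 (chr14:24136158-24138967) stood at 30.3, 23.8 and 24.6 FPKM in controls and at 44.9, 45.8 and 38.9 FPKM when induced, and rose by 0.70 ± 0.16 (adjusted p = 0.0158). PSME2 (chr14:24143362-24147570), which forms the same heptameric cap with PSME1, lies next to it and holds the same GAAAGCGAAA letters printed above. It stood at 17.5, 18.1 and 16.2 FPKM in controls and at 10.7, 14.7 and 15.8 FPKM when induced, with every induced library under every control and a change of -0.32 ± 0.19 that did not pass (adjusted p = 0.246). PSMG4, whose promoter holds these letters too, was at 1.06 to 1.15 FPKM in controls and 1.13 to 1.25 FPKM when induced.

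**Figure D4:**
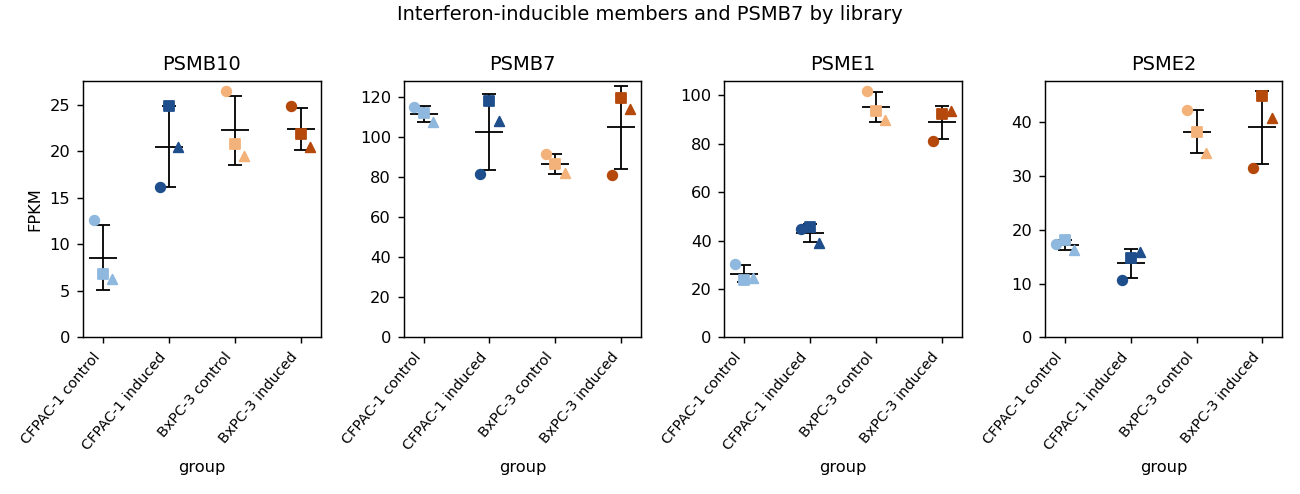
FPKM of PSMB10, PSMB7, PSME1 and PSME2 by group, 1 point per library (circle 1, square 2, triangle 3) with the group mean and SD (n = 3). PSMB10 and PSME1 are higher in all 3 induced CFPAC-1 libraries than in the controls, PSME2 is lower, and all 3 inducible genes are higher in BxPC-3 controls than in CFPAC-1 controls.

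Without control 2 and 3 the direction of most members remained and no member passed. In this fit the remaining CFPAC-1 control was a lone library, assumed to vary like the other groups. With it, 34 members were negative and 9 positive (44.6% of all tested genes were positive), the median was -0.22 (all tested genes -0.05), 0 passed the adjusted threshold where 1.73% of all genes did, and 8 had an unadjusted p under 0.05 (18.1% of all genes). The most negative members were PSME4 at -0.85 (adjusted p = 0.332), PSMD1 at -0.84 (adjusted p = 0.0851) and PSMD11 at -0.84 (adjusted p = 0.0584). PSMB2 stayed at -0.79 (adjusted p = 0.0994) and PSMD2 was at -0.65 (adjusted p = 0.216). Of the other members that passed with all libraries, PSMG3 was at -0.65, PSMB3 at -0.60 and PSMB6 at -0.48 (adjusted p = 0.234, 0.398 and 0.451), and PSMD6 and PSMD13 were at -0.23 and -0.22 (adjusted p = 0.694 and 0.656). The most positive were PSMB10 at 0.64 (adjusted p = 0.25), PSME1 at 0.50 (adjusted p = 0.238) and PSMB1 at 0.15 (adjusted p = 0.854). The medians of the base and the lid were then -0.65 and -0.25, those of the ATPase and beta rings -0.38 and -0.19, and that of the alpha ring -0.08. PSMD1 passed in each of the 12 fits that left out 1 library, with adjusted p of at most 0.0256. PSMB10 did not pass without control 2, control 3 or induced 2 (adjusted p of at most 0.0631), and PSMD2 did not without control 2 or control 3 (adjusted p of at most 0.0588). PSME4 passed in 7 of the 12 fits, and PSMD6 and PSMD13 in 3 each.

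5 members differed by more than 2-fold between CFPAC-1 control 1 and the mean of control 2 and 3 (11.6% of the members, against 23.3% of all tested genes); they were picked out after their values were seen. PSMB1 (chr6:170535117-170553341) was higher in control 2 and 3 by 2.22 on the log2 scale. The 7 tested genes that start within 1 Mb of it were also all higher there, with a median of 1.69. PSMD6 was higher by 1.21 and its 1 tested neighbour by 1.27, and PSMD8 by 1.17 with 20 of 26 neighbours positive and a median of 1.55. PSMD10 was higher by 1.06 with 7 of 8 neighbours positive, and PSMD13 by 1.04 with 32 of 41. Of all 12860 tested genes 6485 were positive, with a median of 0.006. DNA copy number was not measured here, and its part in these values was not tested. Since all 5 were picked as higher in control 2 and 3, leaving those libraries out had to raise their change on induction. The shift is thus not a further result. PSMB1, PSMD8 and PSMD10 were then at 0.15, 0.05 and 0.01, against -1.33, -0.73 and -0.70 with those libraries. PSMD6 and PSMD13 were at -0.23 and -0.22 against -1.04 and -0.91.

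In BxPC-3 nearly all members had a small positive change and none passed the threshold. The log2 change was positive for 40 of the 43 members, with a median of 0.28 (range -0.28 to 0.57), against a median of 0.06 over all tested genes, 59.1% of which were positive. With limma 0 members passed the adjusted threshold, where 0.334% of all tested genes did, and 6 had an unadjusted p under 0.05 (8.52% of all genes). Induced libraries lay above all controls for 7 members (16.3%, against 12.4% of all tested genes): PSMB5, PSMC2, PSMC6, PSMD1, PSMD11, PSMD10 and PSMD5. No member lay under all controls (4.84% of all tested genes did).

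The largest positive values were in 3 different parts of the particle. PSMD14 stood at 5.99, 7.07 and 7.89 FPKM in BxPC-3 controls and at 7.84, 12.97 and 12.3 FPKM when induced, a change of 0.57 ± 0.20 (adjusted p = 0.432) with induced 1 inside the control range. PSMB5 stood at 51.0, 55.8 and 34.3 FPKM in controls and at 59.2, 88.2 and 62.1 FPKM when induced, a change of 0.57 ± 0.25 (adjusted p = 0.565). PSMC2 stood at 21.3, 20.5 and 22.3 FPKM in controls and at 26.3, 33.4 and 35.7 FPKM when induced, a change of 0.54 ± 0.16 (adjusted p = 0.338) without overlap. The 3 negative members were all activators: PSME3 (PA28 gamma, the nuclear activator) at -0.28, PSME4 at -0.26 and PSME1 at -0.10, with adjusted p of 0.931, 0.903 and 0.947. PSME3 stood at 30.8, 22.5 and 24.3 FPKM in controls and at 23.4, 12.4 and 31.3 FPKM when induced, and was at 0.08 without induced 2. PSMB10 had a change of 0.02 and PSME2 one of 0.02.

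By role, the BxPC-3 medians were 0.40 in the alpha ring, 0.20 in the beta ring, 0.41 in the ATPase ring, 0.44 in the non-ATPase base and 0.28 in the lid, with all 31 genes of these 5 parts positive. They were 0.28 for the base chaperones, 0.17 for the core chaperones and -0.18 for the activators.

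The BxPC-3 direction differed by library number. Between induced 1 and control 1, 20 members were positive and 23 negative, with a median of -0.05 (all tested genes 0.09). Between the means of libraries 2 and 3, 41 were positive and 2 negative, with a median of 0.44 (all tested genes 0.05). In CFPAC-1 the same comparison gave 35 negative members and a median of -0.40 for library 1 (all tested genes 0.01), and 36 negative and a median of -0.41 for libraries 2 and 3 (all tested genes -0.13). The labels do not say what a library number stands for.

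**Figure D5:**
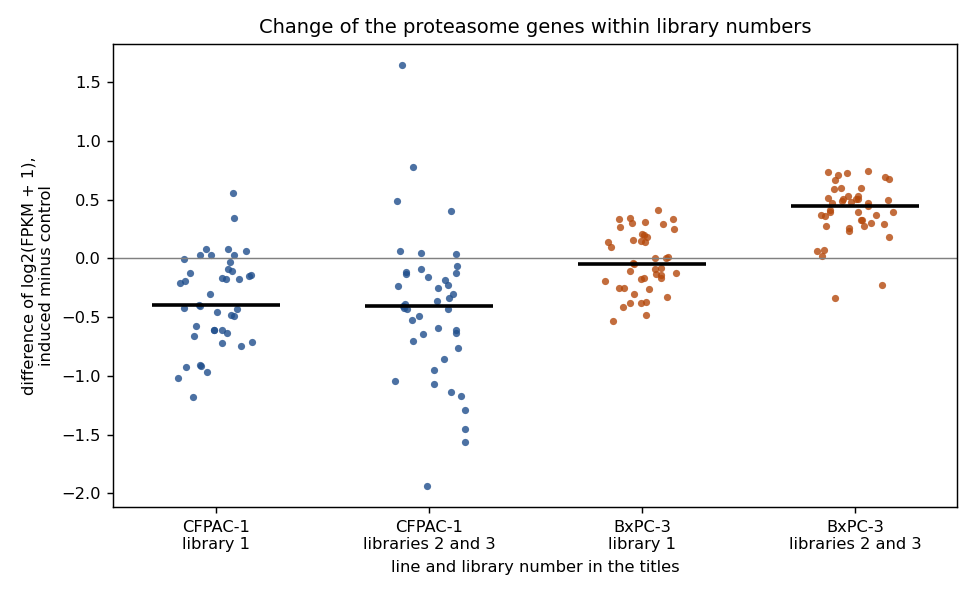
Difference of log2(FPKM + 1), induced minus control, of each proteasome gene (points) between libraries numbered 1 and between the means of libraries 2 and 3, in each line; the bars are medians over the 43 genes. The CFPAC-1 medians are -0.40 and -0.41, and the BxPC-3 medians are -0.05 for library 1 and 0.44 for libraries 2 and 3.

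The changes of the lines were set against each other by the difference, BxPC-3 minus CFPAC-1. It was positive for 39 of the 43 members, with a median of 0.75 (all tested genes 0.16, 59.2% positive). With limma 4 members passed, all with the more positive change in BxPC-3 (9.3% of members, against 2.45% of all tested genes in either direction and 1.34% in this one). Counted by sign alone, 35 members were positive in BxPC-3 and negative in CFPAC-1 (32.5% of all tested genes were), and 32 without CFPAC-1 control 2 and 3 (31.7%). PSMD1 had a difference of 1.56 ± 0.24 (adjusted p = 0.0153). The BxPC-3 controls held 14.9, 13.6 and 14.3 FPKM of it and the induced libraries 19.05, 21.4 and 21.7 FPKM, above every control, whereas in CFPAC-1 every induced library was under every control. PSMD2, at 82.7, 57.7 and 53.8 FPKM in BxPC-3 controls and at 73.5, 81.5 and 77.8 FPKM when induced, had a difference of 1.30 ± 0.29 (adjusted p = 0.0447). It did not pass with a pseudocount of 0.1, without a filter on low values or under quantile normalization (adjusted p = 0.0689, 0.0627 and 0.0645).

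The other two were 1 subunit each of the core and the lid. PSMB2 stood at 44.3, 37.8 and 36.0 FPKM in BxPC-3 controls and at 39.3, 49.4 and 48.2 FPKM when induced, and had a difference of 1.09 ± 0.22 (adjusted p = 0.0369). PSMD11 stood at 10.6, 10.1 and 9.93 FPKM in BxPC-3 controls and at 11.9, 12.4 and 12.3 FPKM when induced, and had a difference of 0.97 ± 0.19 (adjusted p = 0.0343). Both carried a small positive BxPC-3 value, 0.21 and 0.24, that did not pass by itself. PSMB10 and PSME1 had the most negative differences, -1.19 (adjusted p = 0.0897) and -0.80 (adjusted p = 0.0787). Under quantile normalization 3 members passed, 2 with a positive difference (PSMD1 and PSMB2) and 1 with a negative one (PSME1). The share of all tested genes that passed under quantile normalization is not given. Without CFPAC-1 control 2 and 3, 41 differences were positive (59.7% of all genes), the median was 0.55, and 0 passed, where 0.428% of all genes did. In that fit 12 members had an unadjusted p under 0.05 (16.5% of all genes). PSMD1 was then at 1.35 (adjusted p = 0.0696), PSMD11 at 1.08 (adjusted p = 0.0736), PSMB2 at 1.00 (adjusted p = 0.135) and PSMD2 at 0.93 (adjusted p = 0.193). PSMD1 passed in 5 of the 12 fits that left out 1 library, PSMB2 and PSMD11 in 4 and PSMD2 in 3. The count of members past the threshold in those fits ran from 0 to 23, with 23 without CFPAC-1 control 1, 9 without BxPC-3 induced 1, and 0 without any one of CFPAC-1 control 2, control 3 or induced 2 or of BxPC-3 control 2 or 3 or induced 2 or 3. The share of all tested genes passing in those fits is not given, so these counts show only how the calls depend on single libraries. The median difference was 0.29 between libraries numbered 1 and 0.81 between the means of libraries 2 and 3.

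Between the lines in control culture, with all libraries, PA28 and PSMB10 were higher in BxPC-3, and several subunits of the cap and 3 of the beta ring were lower. In all, 3 members were higher (6.98%) and 9 lower (20.9%), together 27.9%. Of all tested genes 26.2% passed, 13.1% in each direction. The members thus passed about as often as all genes, less often as higher and more often as lower. Of the members 12 were positive, where 45.2% of all tested genes were, and the median difference, BxPC-3 minus CFPAC-1, was -0.23 (all tested genes -0.07). The groups did not overlap for 6 higher members (14.0%, against 19.8% of all tested genes) and 17 lower ones (39.5%, against 22.5%). PSME1 stood at 101.9, 93.5 and 89.8 FPKM in BxPC-3 controls, and was higher by 1.82 ± 0.16 (adjusted p = 8.0e-06). PSME2 stood at 42.2, 38.2 and 34.2 FPKM and was higher by 1.10 ± 0.19 (adjusted p = 0.00152). PSMB10, at 26.5, 20.7 and 19.5 FPKM, was higher by 1.33 ± 0.25 (adjusted p = 0.00263).

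The members lower in BxPC-3 controls were led by a deubiquitinase and an ATPase. PSMD14 stood at 5.99 to 7.89 FPKM in BxPC-3 controls and at 16.6 to 18.6 FPKM in CFPAC-1 controls, a difference of -1.22 ± 0.20 (adjusted p = 0.000915). PSMC5 stood at 14.1 to 18.9 FPKM in BxPC-3 controls and at 35.9 to 42.3 FPKM in CFPAC-1 controls, a difference of -1.19 ± 0.20 (adjusted p = 0.000986). The beta subunits PSMB4, PSMB6 and PSMB2 were also lower, by limma, at -0.85, -0.83 and -0.55 (adjusted p = 0.008, 0.0233 and 0.0251). Set against CFPAC-1 control 1 alone, these 3 subunits were at -0.80, -0.44 and -0.46, and their calls did not hold. PSMD13 had a difference of -1.004 ± 0.25 (adjusted p = 0.0135); with CFPAC-1 control 1 as the only CFPAC-1 control it was -0.31 (adjusted p = 0.31). Without those libraries 5 members were higher and 4 lower, 27.5% of all tested genes passed (13.8% as higher and 13.7% as lower), and the median was -0.18. Within libraries numbered 1 the median was 0.02, and between the means of libraries 2 and 3 it was -0.37. PSMB1 then passed as higher at 1.37 (adjusted p = 0.00488), having been at -0.12 with all libraries, and PSMB10 did not, at 0.76 (adjusted p = 0.0648). PSME1, PSME2, PSMD14 and PSMC5 passed in that fit and in each of the 12 that left out 1 library.

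When induced, BxPC-3 had the higher level of 36 of the 43 members, with a median difference of 0.54 (all tested genes 0.12, 56.5% positive). 19 members were higher and none lower past the threshold (44.2%, against 36.2% of all tested genes passing in either direction, 21.4% as higher and 14.8% as lower). Without CFPAC-1 control 2 and 3, which changes only the estimate of spread here, 20 were higher (44.0% of all tested genes passed). The groups did not overlap for 22 higher members (51.2%, against 32.1% of all tested genes) and 1 lower, PSMD4 (2.33%, against 22.4%). PSME2, at 31.5, 44.8 and 40.8 FPKM in BxPC-3 and 10.7, 14.7 and 15.8 FPKM in CFPAC-1, was higher by 1.44 ± 0.19 (adjusted p = 0.000195). PSMD6, at 5.12, 8.01 and 7.27 FPKM in induced BxPC-3, was higher by 1.41 ± 0.29 (adjusted p = 0.00359). PSMB1, at 75.4, 107 and 103.5 FPKM in induced BxPC-3, was higher by 1.42 ± 0.48 (adjusted p = 0.038), a call held in 3 of the 12 fits that left out 1 library. The alpha subunits PSMA3 and PSMA4 and the base chaperone PSMD10 were higher by 1.06 ± 0.23, 1.04 ± 0.24 and 1.06 ± 0.27 (adjusted p = 0.00495, 0.00594 and 0.00973). Of the subunits by role, 4 of 7 in the alpha ring, 2 of 8 in the beta ring, 2 of 5 ATPases, 2 of 3 base genes and 2 of 8 lid genes were higher.

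Levels of neighbouring genes were set beside the line contrasts, as a description. The 7 tested neighbours of PSMB1 had a median line difference of 1.42 when induced (1.25 to 3.63), the same as PSMB1, and the 8 neighbours of PSMD10 had 1.30. The 39 neighbours of PSME1 and PSME2 had a median of 0.56 in control culture, with 1 above PSME1. The 44 neighbours of PSMB10 had a median of -0.07 with 3 above it, the 25 of PSMC5 had -0.15 with 1 below it, and the 5 of PSMD14 had 0.0005 with 1 below it. PSMC5 shares 874 exon bases (19.5% of its own) with FTSJ3 on the opposite strand, mean 15.1 FPKM, and no source used here says whether counting used strand.

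The 3 removed genes behaved as follows. PSMC4, the sixth ATPase, stood at 51.5, 705 and 700.3 FPKM in CFPAC-1 controls and at 31.9 to 43.7 FPKM when induced, so its change of -2.99 (adjusted p = 0.0271) was -0.50 without control 2 and 3. The inducible PSMB9 had a change of 0.62 (adjusted p = 0.0396) and PSMB8 one of 0.96 (adjusted p = 0.0858) in CFPAC-1, and 0.24 and 0.29 in BxPC-3. Without control 2 and 3 the CFPAC-1 values were 0.61 (adjusted p = 0.256) for PSMB9 and -0.07 for PSMB8.

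Other parts of the ubiquitin-proteasome pathway were counted in the same fits. None of their genes passed in BxPC-3, where 0.334% of all tested genes did. In CFPAC-1 16.6% of all tested genes passed, 7.85% as higher and 8.77% as lower. Of 12 proteasome-associated factors, 1 rose and 2 fell in CFPAC-1 (median -0.27): the small lid subunit SEM1 rose by 0.93 (adjusted p = 0.0463), and the proteasome deubiquitinase USP14 and the cap-binding PITHD1 fell by 0.84 and 0.83 (adjusted p = 0.0217 and 0.0465). Of 14 genes of p97 and the ubiquitin shuttles, 4 fell and none rose (median -0.34). They included the unfoldase VCP itself, which fell by 0.95 (adjusted p = 0.0175), and its cofactors FAF1 and FAF2, which fell by 0.94 and 0.79 (adjusted p = 0.0109 and 0.0442). None of 6 ubiquitin and E1 genes passed (median 0.16).

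The NRF1 axis, the transcription factor, its processing enzymes and relatives, had 12 tested genes and none past the threshold in either line, with medians of -0.11 in CFPAC-1 and 0.05 in BxPC-3. NFE2L1, which encodes NRF1, stood at 41.3, 35.5 and 54.1 FPKM in CFPAC-1 controls and at 53.0, 35.4 and 32.4 FPKM when induced, a change of -0.13 (adjusted p = 0.771). Of 8 tested interferon-inducible and peptide-loading genes, 2 rose in CFPAC-1 (median 0.20), where 7.85% of all tested genes passed as higher. B2M, the light chain of MHC class I, rose by 0.92 (adjusted p = 0.0373) and PSMB9 by 0.62 (adjusted p = 0.0396). In CFPAC-1 the summed level of the 6 immune markers was 10.6 to 13.4 FPKM in controls and 37.7 to 48.3 FPKM when induced, nearly all CD68 in the induced libraries, and its part in the rise of PSMB10 and PSME1 was not tested.

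Other multi-subunit complexes were listed for comparison. Their CFPAC-1 counts stand beside 7.85% of all tested genes passing as higher and 8.77% as lower. The CCT chaperonin, which folds actin and tubulin, had 4 of 8 genes lower and none higher in CFPAC-1 (median -0.73). CCT2, TCP1 and CCT5 fell by 1.17, 1.07 and 0.94 (adjusted p = 0.0223, 0.0442 and 0.0162), and CCT5 also passed in the difference between the lines, at 1.33 (adjusted p = 0.0446), but not with control 2 and 3 left out, at 1.25 (adjusted p = 0.165). The COP9 signalosome, which shares its plan with the lid, had 1 of 10 lower, COPS3, which fell by 1.023 (adjusted p = 0.0153), and a median of -0.34; all 10 of its differences between the lines were positive (median 0.69), where 59.2% of all tested genes were, and 8 with control 2 and 3 left out (median 0.51, 59.7% of all genes). The eIF3 complex, also built on the plan of the lid, had 2 of 13 higher and 2 lower and a median of -0.07: EIF3E rose by 0.94 (adjusted p = 0.0321), and EIF3J and EIF3I fell by 0.90 and 0.66 (adjusted p = 0.0287 and 0.0431). Of the 13 mitochondrially encoded mRNAs, all were negative in both lines, with medians of -0.73 and -0.43, and MT-ND5 and MT-ND6 fell in CFPAC-1 by 0.88 and 0.73 (adjusted p = 0.0425 and 0.0423). In CFPAC-1 library 1 all were lower when induced. In libraries 2 and 3 MT-ND1, MT-ND2, MT-ND3, MT-CO1, MT-CO3, MT-ATP6 and MT-ATP8 were higher when induced. There MT-ND4L, MT-ND5 and MT-ND6 were lower and the others overlapped. No gene of these lists passed in CFPAC-1 once control 2 and 3 were left out, and the medians were -0.36 for CCT, -0.28 for COP9, 0.40 for eIF3, 0.42 for the NRF1 axis and -0.38 for p97 and the shuttles. They were -0.14 for the associated factors, -0.01 for ubiquitin and E1 genes, 0.50 for the interferon-inducible genes and -1.46 for the mitochondrial mRNAs.

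Near-identical copies limit single values. The table holds 32 pseudogenes named after members, of which 3 passed the filter, and the median of their highest levels was 0.018 FPKM. PSMC1P1 had a mean of 21.4 FPKM, so reads of PSMC1 may be split with it and the level of PSMC1 is uncertain. Exons of 21 members overlap those of another annotated gene, and for 9 of them the other gene lies on the opposite strand with a mean of at least 1 FPKM.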

How the data were processed

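Bulk RNA of the 12 libraries was sequenced. FastQC, StringTie and GRCh38 are named in the submitters' processing notes; the sources used here do not give the aligner, the annotation or the use of strand. The authors deposited 1 table of log2 values, log2(FPKM + 1) per gene and library, per the file headers and the values. It holds no counts, so depth is unknown and no counting interval can be given; summed FPKM was 258299 to 315377 per library. The 12860 genes with at least 1 FPKM in 3 or more libraries were fitted with limma 3.58.1 (R 4.3.3): 4 group means over 12 libraries, 8 residual degrees of freedom, no trend or block, two-sided, with Benjamini-Hochberg adjustment over all of them and a threshold of 0.05. The method was run on simulated data with independent normal noise and changes set only in induced BxPC-3. That setting held no libraries set apart like CFPAC-1 control 2 and 3, so it cannot speak for the CFPAC-1 contrasts. Log2 changes understate those of low genes. Coordinates are GENCODE 29 (GRCh38). The members and lists were chosen with earlier results of these data known. Named were, per contrast, up to 6 members past the threshold by size, the highest and lowest of each role, the inducible genes with PSMB7, the 3 largest rises and falls in BxPC-3 and in CFPAC-1 without control 2 and 3, and up to 3 genes past the threshold per other list; others are named to account for their role. Alternatives were another pseudocount, filters, scalings, variance settings, a block and left-out libraries. A result of the interferon list is not reported here.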

Additional observations from a re-analysis of the deposited data

Results flagged for a closer look

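Of the changes on induction, 4 differed between the lines by the limma test of the difference itself, BxPC-3 minus CFPAC-1, with Benjamini-Hochberg adjustment. The base scaffolds PSMD1 and PSMD2 differed by 1.56 (adjusted p = 0.0153) and 1.30 (adjusted p = 0.0447) on the log2 scale, the core subunit PSMB2 by 1.09 (adjusted p = 0.0369) and the lid scaffold PSMD11 by 0.967 (adjusted p = 0.0343). For each, all 3 induced CFPAC-1 libraries lay under all 3 controls. In BxPC-3 the induced libraries of PSMD1 and PSMD11 lay above all controls, and those of PSMD2 and PSMB2 overlapped them. PSMD2 did not pass with a replicate block, a pseudocount of 0.1, no filter on low values or quantile normalization (adjusted p = 0.0623, 0.0689, 0.0627 and 0.0645). PSMB2 did not pass with that pseudocount, nor PSMD11 with it or under quantile normalization. Without CFPAC-1 control 2 and 3 none of the 4 passed, with values of 1.35, 0.93, 1.00 and 1.08 in the order named above.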

How the results depend on the processing

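In CFPAC-1 12 members passed, against 7 without a filter on low values, 20 after rescaling without mitochondrial genes, 0 without control 2 and 3, 2 with the line fitted alone and 3 to 19 with 1 library left out (19 without control 1, 3 without control 2 or 3, 4 without induced 2 and 6 without induced 3). In BxPC-3 0 passed in any fit run. For the difference between the lines 4 passed, 1 with a pseudocount of 0.1, 0 without control 2 and 3 and 0 to 23 with 1 library left out. Between the lines 12 passed in control culture and 19 when induced, 8 to 17 and 10 to 24 with 1 library left out, the fewest of the latter without BxPC-3 induced 3 (10) and induced 2 (12). The CFPAC-1 median of -0.375 was -0.498 after rescaling, where that of all tested genes went from -0.0919 to -0.184. It was -0.218 without control 2 and 3 and -0.47 to -0.341 with 1 library left out. The BxPC-3 median of 0.275 was -0.0478 within library number 1, 0.445 within numbers 2 and 3 and 0.227 to 0.394 with 1 library left out. The median difference of 0.749 was 0.621 under quantile normalization, 0.55 without control 2 and 3, 0.291 within number 1 and 0.662 to 0.856 with 1 library left out. The median between the lines in control culture, -0.233, was 0.0209 within number 1, -0.37 within numbers 2 and 3 and -0.315 to -0.18 with 1 library left out; when induced, 0.537 was 0.406 within number 1 and 0.425 to 0.652. The cause of these shifts was not tested. For most alternative fits the share of all tested genes that passed is not given. The member counts of this section therefore show only how the calls depend on the fit. PSME3 in BxPC-3 ran from -0.561 to 0.0764 with 1 library left out, the latter without induced 2, and PSMB1 in CFPAC-1 at 0.147 without control 2 and 3. Quantile normalization moved the median of all genes by -0.1 in the difference and by -0.12 between the induced lines. Of 633 values of named members under the alternatives, 520 kept direction and side of the threshold, 108 lost the call, 3 gained it (all PSMB1) and 2 changed sign. Deviations of same-numbered control and induced libraries from their group means correlated at -0.0798 to -0.0198 in CFPAC-1 and 0.0535 to 0.151 in BxPC-3. Those of differently numbered libraries correlated at -0.0603 to 0.0744 and at -0.165 to 0.152. Library 1 stood apart within each group, so these values cannot decide whether the numbers pair samples. With a replicate block 15, 0, 4, 15 and 20 members passed in the 5 contrasts. Of the named members PSMD2 lost its call in the difference and PSMB1 gained one in CFPAC-1. Depth is unknown, so the counting error of low members such as PSMG4 (0.924 to 1.25 FPKM) cannot be given.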
